A study of Homo sapiens with 2 samples.

Results

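The genes of the proteasome, the protease complex that breaks down ubiquitin-tagged proteins, were compared between 2 stable derivatives of Ca9-22, an established line from a gingival carcinoma. One derivative carried an empty vector and the other a vector for RUNX2, a runt-domain transcription factor best known from bone. Both had been selected with blasticidin for 2 weeks, and total RNA of each was hybridised as biotin-labelled cRNA to 1 Affymetrix array. The promoter that drove RUNX2, and whether the cells were a pool or a clone, are not given in the sources used here. With 1 array per group there is no replicate, no test and no p-value. A difference between the vectors cannot be told apart from one between 2 cultures or 2 hybridisations.

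Members were the genes whose probe sets carry as their only symbol one that starts with PSMA, PSMB, PSMC, PSMD, PSME, PSMF or PSMG, without pseudogenes. The rule found 50 of the 19775 genes named on the array, and these had 97 probe sets. Of the 50, 42 encode proteasome subunits, activators, inhibitors or assembly factors, and the other 8 carry such a name but encode none of these. A gene was measured if a probe set exceeded the floor, which is the median of its array, on at least 1 array. This held for 41 of the 42 and for 47 of all 50. The testis form PSMA8 was below the floor on both arrays. PSMA6 and PSME2 had only probe sets with several symbols and are no members, and PSMB11, PSMC5, PSMD7 and PSMD13 are not analysed here.

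The brightest measured probe set stood for its gene. Levels are intensities in arbitrary units, and those of the RUNX2 array were multiplied by 0.966 to equal the trimmed means of the arrays. Differences are log2 ratios of the RUNX2 array over the empty vector array. All 41 standing probe sets lay above the floor on both arrays, the lowest at 4.04 times the floor. Between probe sets of 1 gene, log2 ratios spread with an SD of 0.293 over 6165 genes and of 0.235 over the 20 proteasome genes with 2 or more measured probe sets. That spread lies between probe sets read on the same 2 arrays, with bounds counted in, and is no replicate error.

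In the proteasome, a barrel of stacked rings known as the 20S core does the cutting. Its outer alpha rings gate the entry, and its inner beta rings hold the proteolytic sites. The 19S cap recognises ubiquitin chains, removes them and threads the unfolded substrate into the core, and cap and core together form the 26S proteasome. Interferon exchanges the catalytic beta subunits for inducible ones, which gives the immunoproteasome that supplies peptides to MHC class I. Transcription of the constitutive subunits is known to be raised as a set by NFE2L1 when proteasome capacity falls short.

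The measured constitutive 26S subunits with a PSM symbol were all higher on the RUNX2 array. These 27 genes had log2 ratios above 0, from 0.08 for PSMD4 to 0.996 for PSMD12, with a median of 0.49. Over all 12729 measured genes the median was -0.06, and 42.7% lay above 0. Of the 27 subunits, 25 lay above the upper quartile of all measured genes (0.18), which 25% of genes exceed by definition. Inducible immunoproteasome genes and assembly factors did not share this shift as lists, with medians of 0.12 and -0.01. No test of the difference between these lists was possible. In RNA of whole cultures, fewer cells of a type and less RNA per cell cannot be told apart.

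The shift was small in size and even in direction. Among the 47 measured genes that the rule chose, 13 passed 1.5-fold upwards and 0 passed it downwards, where 5.77% of all measured genes were higher and 6.88% lower by that measure. At 2-fold there were 2 higher members, PSMG1 and PSME4, and 0 lower ones, beside 1.42% and 1.47% of all genes. When the arrays were given equal medians in place of equal trimmed means, the split over all genes at 1.5-fold turned to 8.19% higher and 4.75% lower, and 17 members were higher and 0 lower. Among the 27 subunits the SD of the log2 ratios was 0.216, and over all measured genes it was 0.419. These sets were not matched for level. The 41 proteasome genes had a median of 30.3 times the floor, whereas any gene above the floor on at least 1 array counted as measured.

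**Figure D1:**
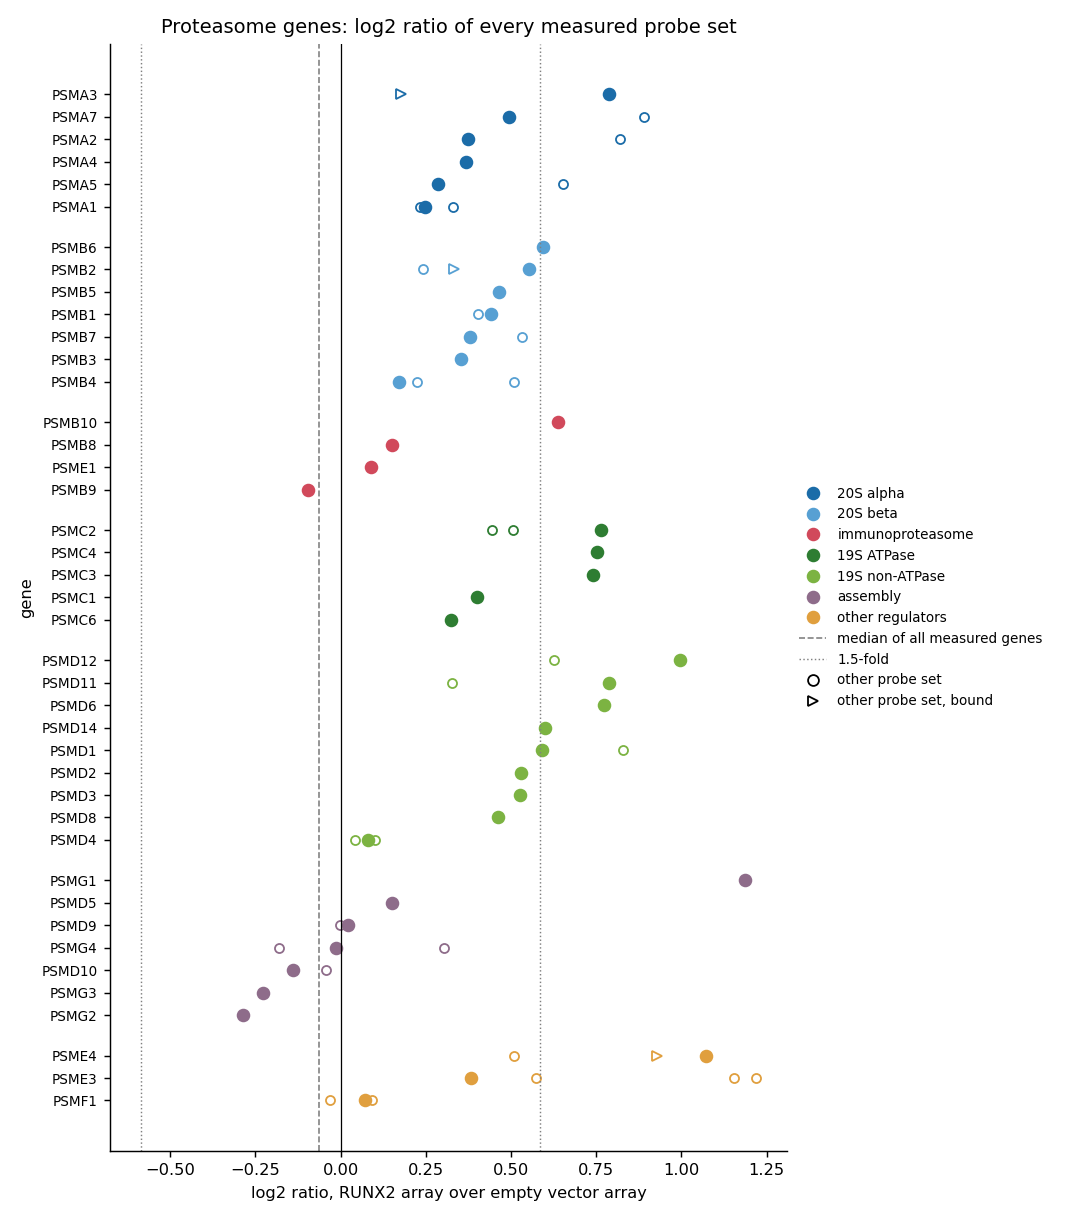
Log2 ratio of the RUNX2 array over the empty vector array for every measured probe set of the 41 proteasome genes, grouped by role; filled points are the brightest probe set, open circles the others, and open triangles are lower bounds from probe sets that exceeded the floor on the RUNX2 array alone. All points of the 20S and 19S classes lie to the right of 0, and those of the assembly class lie on both sides of it.

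Genes of the cutting core were all higher. The 13 measured genes had a median log2 ratio of 0.38, and all 13 lay above 0, beside 42.7% of all measured genes. Of the 13, 2 were at least 1.5-fold higher, beside 5.77% of all measured genes. In the alpha ring, the widest ratio belonged to PSMA3, which went from 1529 (empty vector) to 2637 (RUNX2), 1.72-fold higher. A second, dimmer probe set did not reach the floor in the empty vector cells, and there the ratio was at least 0.18. PSMA1 had the lowest ratio of the ring, from 1850 to 2197 (log2 ratio 0.25), and its 3 probe sets ranged from 0.23 to 0.33. The other 4 alpha genes, PSMA5, PSMA4, PSMA2 and PSMA7, lay between 0.28 and 0.49. For 3 of them a dimmer probe set gave a wider ratio than the brightest, at 0.65 for PSMA5, 0.82 for PSMA2 and 0.89 for PSMA7.

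In the beta ring, the 3 subunits with proteolytic activity were all higher. PSMB6, the caspase-like subunit, went from 1490 to 2250, 1.51-fold higher. PSMB5, the chymotrypsin-like subunit and the main target of bortezomib, went from 1356 to 1870 (log2 ratio 0.46). PSMB7, the trypsin-like subunit, went from 3380 to 4403 (0.38), and its other probe set had 0.53. The subunits without an active site covered a wider range. PSMB4 had the lowest ratio of the ring, from 4851 to 5462 (0.17), although its other probe sets had 0.23 and 0.51. PSMB3, PSMB1 and PSMB2 had 0.35, 0.44 and 0.55. Dimmer probe sets had 0.40 for PSMB1 and, for PSMB2, 0.24 and a bound of at least 0.33.

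The 19S cap had the highest median of the 4 lists compared, 0.60 over 14 genes. All 14 lay above 0, beside 42.7% of all measured genes, and 8 were at least 1.5-fold higher, beside 5.77%. The ATPases of the cap form the ring that unfolds substrates. PSMC2 went from 2477 to 4207, 1.70-fold higher, with 0.51 and 0.45 in its other probe sets. PSMC4 went from 390 to 657, 1.68-fold higher, and PSMC3 from 452 to 756, 1.67-fold higher. These 3 ATPases were close to one another, and the remaining pair had lower ratios. PSMC1 had a log2 ratio of 0.40, and PSMC6, from 1046 to 1308, had 0.32.

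Among the 9 non-ATPase genes of the cap, the lid scaffold subunit PSMD12 had the widest ratio. It went from 1227 to 2447, a log2 ratio of 0.996 and just short of 2-fold, and its other probe set had 0.63. PSMD11, also of the lid and known as a subunit that stabilises the assembled 26S particle, went from 691 to 1192 (1.72-fold), with 0.33 in its other probe set. PSMD6, another lid scaffold subunit, went from 1119 to 1913 (1.71-fold). PSMD14, the deubiquitinase that cuts the ubiquitin chain from the substrate, went from 2601 to 3938 (1.51-fold). PSMD1, the large scaffold of the base, went from 1052 to 1586 (1.51-fold), and its other probe set had a wider ratio of 0.83. All 5 were above the 1.5-fold mark, while PSMD8, PSMD3 and PSMD2 lay under it at 0.46, 0.53 and 0.53.

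PSMD4 had the lowest ratio among the cap genes with a PSM symbol. This ubiquitin receptor read 2433 with the empty vector and 2573 with RUNX2, a log2 ratio of 0.08. Its 3 measured probe sets had 0.04, 0.08 and 0.10, so the probe sets were closer together than the next of these cap genes, PSMC6, was to any of them. SEM1, a small cap subunit without a PSM symbol, was lower still, at 2714 and 2724 (0.00). ADRM1, a further ubiquitin receptor of the cap that has no PSM symbol, went from 709 to 1141 and had 0.69. By position, the 6 measured lid genes had a median of 0.69 and the 8 of the base, PSMD4 counted among them, one of 0.56.

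Probe sets other than the brightest gave a further look at the same 2 arrays. The 27 subunits had 46 measured probe sets, and all 46 had log2 ratios above 0, from 0.04 to 0.996. By gene, 42.7% of all measured genes lay above 0, and the share over all probe sets was not counted. The 19 that were not the brightest came from 14 genes and had a median of 0.40. Probe sets of 1 gene read the same RNA, so they add no replicate.

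**Figure D2:**
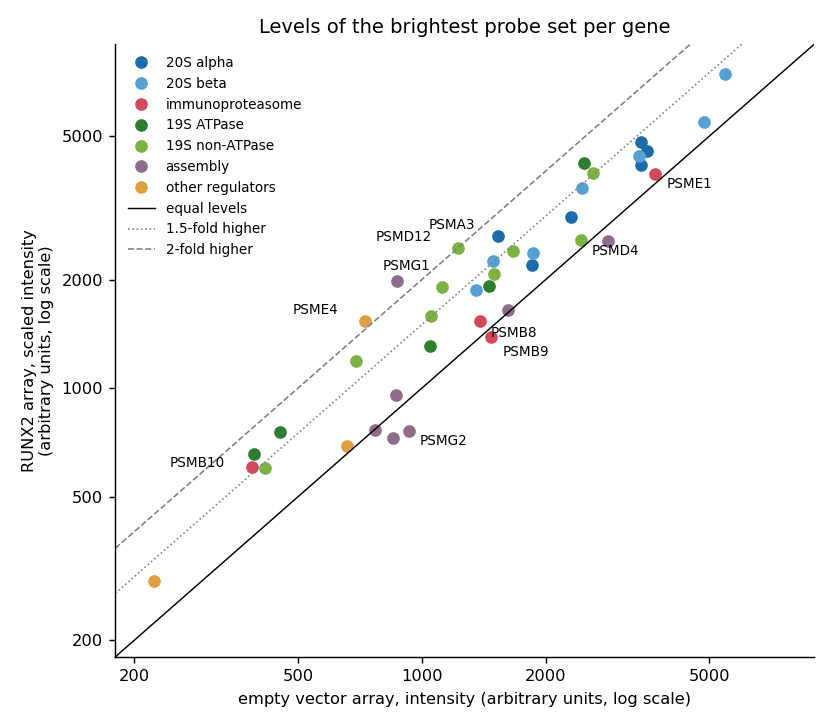
Level of the brightest probe set of each of the 41 genes with the empty vector (horizontal) and with RUNX2 after scaling (vertical), in arbitrary units on log axes; the lines mark equal levels and levels 1.5-fold and 2-fold higher. Points of the 20S and 19S classes lie above the line of equal levels, while PSMB9 and PSMG2 lie below it.

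The inducible genes differed among themselves. Of the 5 immunoproteasome genes in the rule, 4 were measured, each by 1 probe set. PSMB10, the inducible trypsin-like subunit, went from 387 to 603, 1.56-fold higher. PSMB8, the inducible chymotrypsin-like subunit, went from 1385 to 1538 (log2 ratio 0.15). PSMB9, the inducible subunit that takes the place of PSMB6, went from 1477 to 1382 (-0.10), close to the median of all genes. PSME1, a subunit of the PA28 activator that opens the core, went from 3695 to 3935 (0.09). Of these 4 genes PSMB10 alone was above the upper quartile of all genes, and their median was 0.12.

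Set against the constitutive subunit that each replaces, the inducible subunits did not go one way. The log2 ratio of PSMB8 was lower than that of PSMB5, with a difference of -0.31. The ratio of PSMB9 was lower than that of PSMB6, with a difference of -0.69. In contrast, PSMB10 had a ratio higher by 0.26 than that of PSMB7. The first and the last of these differences are about as wide as the SD of 0.293 between probe sets of 1 gene. That SD is of single ratios, and a difference between a pair of genes carries the spread of both.

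Other interferon-stimulated genes were measured on the same arrays. In a list of interferon signalling genes, 5 of 7 measured were at least 2-fold higher, beside 1.42% of all measured genes. The median log2 ratio of the list was 1.70. ISG15, a ubiquitin-like modifier, had that median ratio, IFIT3 had the highest, 2.21, and OAS1 and IFIT1 had 1.92 and 2.04. The transcription factor IRF7 had 1.21 and its relative IRF9 0.91. IRF1, known to drive PSMB8 and PSMB9 transcription, was the lowest of the list, with 361 and 323 (-0.16), and its other probe set had 0.13. The ratio of PSMB10, 0.64, was the highest of the 4 measured immunoproteasome genes. It lay below the ratios of all measured genes of the interferon list other than IRF1.

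Genes that supply and load peptides for MHC class I went both ways. Of 9 measured genes, 4 (44.4%) had ratios above 0, near the 42.7% of all measured genes. None passed 2-fold, and the median was -0.01. NLRC5, the transactivator of class I genes, was highest at 0.76, and the peptide transporter TAP1 had 0.41. HLA-C was lowest at -0.14. Leukocytes hold much immunoproteasome, and their markers were therefore read on the same arrays. Of 7 leukocyte markers with a probe set, PTPRC, CD3E, CD2, CD14 and ITGB2 were below the floor on both arrays. LCP1 went from 775 to 1073 and CORO1A from just under the floor to 77.2, so the summed level of these 2 genes went from 830 to 1150. Their part in the ratios of the inducible subunits was not tested.

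The promoters of 6 genes are shown because they carry motifs of the pathways named here. The 300 bases around each start site, 250 before it and 50 after, were read from RefSeq (GRCh38.p14) for 35 of the 41 measured genes. A gene with more than 1 such window counted as matched if any of them matched. The full set held 35116 windows of 27305 genes. The interferon-stimulated response element was searched on both strands as GAAA, any 2 bases and GAAA again. It was present in 3 of the 4 measured immunoproteasome genes, in 2 of 9 core genes, in 0 of 13 cap genes and in 1 of 6 assembly genes, beside 4.38% of all 27305 genes with such a window. In PSMB8, PSMB10 and PSME1 the match was GAAAGCGAAA, and it began 4 bases before the start site in PSMB8, 21 bases before it in PSMB10 and 5 bases after it in PSME1. The windows below run from 200 bases before the start site to 20 bases from it, 5′ to 3′ on the strand of the gene, and capitals mark the match, which is on the opposite strand in PSMB8 and PSME1.
PSMB8, chr6:32844028-32844247, minus strand: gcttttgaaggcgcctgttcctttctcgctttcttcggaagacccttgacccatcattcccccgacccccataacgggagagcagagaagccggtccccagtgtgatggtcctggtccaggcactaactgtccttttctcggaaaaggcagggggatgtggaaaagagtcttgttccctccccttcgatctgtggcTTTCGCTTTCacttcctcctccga
PSMB10, chr16:67936831-67937050, minus strand: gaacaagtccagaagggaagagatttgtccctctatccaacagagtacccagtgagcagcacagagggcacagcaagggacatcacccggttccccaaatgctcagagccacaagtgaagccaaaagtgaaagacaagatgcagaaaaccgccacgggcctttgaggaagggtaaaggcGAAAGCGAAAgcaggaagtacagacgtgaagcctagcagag
PSME1, chr14:24135994-24136213, plus strand: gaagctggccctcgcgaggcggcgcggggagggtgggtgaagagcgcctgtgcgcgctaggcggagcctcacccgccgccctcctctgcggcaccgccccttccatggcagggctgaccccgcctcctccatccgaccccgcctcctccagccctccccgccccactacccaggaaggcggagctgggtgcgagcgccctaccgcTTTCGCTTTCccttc

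The antioxidant response element, the core motif bound by NFE2L1 and its relative NFE2L2, was searched as TGACNNNGC on both strands. It was present in 2 of 9 core genes, 4 of 13 cap genes, 2 of 4 immunoproteasome genes, 4 of 6 assembly genes and 1 of 3 other regulators, beside 16.1% of all genes. The 6 constitutive subunits with a match, PSMA4, PSMB3, PSMC4, PSMD1, PSMD3 and PSMD12, had a median log2 ratio of 0.56 (0.35 to 0.996), and the 16 without one had 0.50 (0.17 to 0.79). The ranges overlap over most of their length. A CCAAT box (CCAAT, both strands) was present in 7 of 9 core genes and 6 of 13 cap genes, beside 39.7% of all genes. It was present in 1 of 4 immunoproteasome genes, 2 of 6 assembly genes and 1 of 3 other regulators. The gamma-activated site TTCNNNGAA was present in 2 of 9 core genes and 3 of 13 cap genes, beside 9.38% of all genes. The other lists had that site in 1 of 4 immunoproteasome genes, 0 of 6 assembly genes and 1 of 3 other regulators. Matches of different motifs overlapped in 0 cases among the members. The windows below, in the same frame, show a match in a core subunit, in the cap subunit with the widest ratio and in the activator PSME4, where it is on the opposite strand.
PSMB3, chr17:38752541-38752760, plus strand: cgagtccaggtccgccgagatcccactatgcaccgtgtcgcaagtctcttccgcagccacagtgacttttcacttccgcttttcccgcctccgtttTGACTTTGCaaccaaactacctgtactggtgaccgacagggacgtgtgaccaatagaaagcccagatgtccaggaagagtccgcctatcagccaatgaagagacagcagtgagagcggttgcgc
PSMD12, chr17:67366558-67366777, minus strand: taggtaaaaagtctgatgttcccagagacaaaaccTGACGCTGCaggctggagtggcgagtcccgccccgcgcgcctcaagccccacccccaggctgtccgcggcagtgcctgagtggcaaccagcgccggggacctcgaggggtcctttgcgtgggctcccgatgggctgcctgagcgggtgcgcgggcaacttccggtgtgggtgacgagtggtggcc
PSME4, chr2:53970974-53971193, minus strand: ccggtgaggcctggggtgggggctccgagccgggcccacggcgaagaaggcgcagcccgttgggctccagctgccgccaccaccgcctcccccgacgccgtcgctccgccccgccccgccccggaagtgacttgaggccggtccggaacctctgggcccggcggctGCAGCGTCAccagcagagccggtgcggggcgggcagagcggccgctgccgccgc
A match is a stretch of letters and no measurement of binding.

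The 7 assembly genes had a median of -0.01, with 3 above 0 (42.9%) and 4 below, near the 42.7% of all measured genes above 0. Of the 7, 1 was at least 1.5-fold higher, beside 5.77% of all measured genes. The sign of that median turned under several settings, as given with the processing alternatives. PSMG1 and PSMG2 encode the partners of the dimer that starts the alpha ring. PSMG1 had the highest ratio of all members, from 869 to 1978, 2.28-fold higher, and above 99.1% of measured genes. PSMG2 had the lowest ratio of all 41 genes, from 931 to 763 (-0.29). The dimer's 2 genes thus had ratios of opposite sign, each read by 1 probe set. The ratio of PSMG2 was no wider than the SD of 0.293 between probe sets of 1 gene.

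PSMG3 and PSMG4, whose products form the other alpha ring chaperone dimer, had -0.23 and -0.01, and dimmer probe sets of PSMG4 had 0.30 and -0.18. The chaperones of the 19S base were near 0. PSMD5 had 0.15, PSMD9 0.02 and PSMD10, also known as gankyrin, -0.14. Without these chaperones the 4 PSMG genes had a median of -0.12. POMP, the maturation factor that helps the core to close and has no PSM symbol, went from 2731 to 3862 (0.50), with 0.68 in its other probe set.

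**Figure D3:**
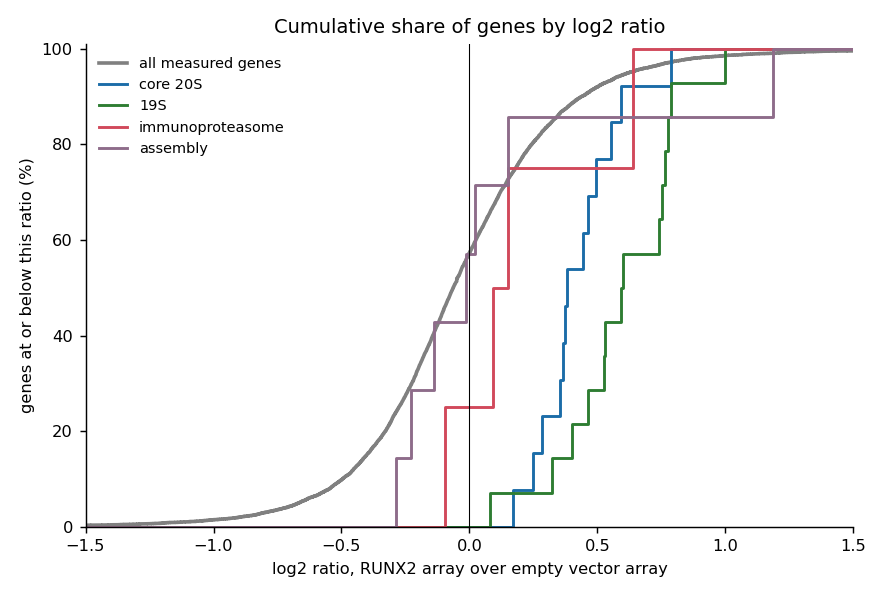
Cumulative share of genes (%) at or below a given log2 ratio, for all 12729 measured genes and for 4 proteasome classes; each step is 1 gene in the class curves. The core 20S and 19S curves start to the right of 0 and reach 100% at PSMA3 and PSMD12, while the curve of all genes starts far to the left of 0 and runs on to the right of both; the assembly curve runs near it up to PSMG1.

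The remaining regulators are caps other than 19S and their antagonist. PSME4, the PA200 activator found in nuclei, went from 728 to 1531, 2.10-fold higher. A second probe set had a lower ratio of 0.51 and the third gave a bound of at least 0.93, so the mean over probe sets was under 2-fold. PSME3, the nuclear PA28 gamma activator, was dim. Its brightest probe set went from 223 to 291 (0.38), whereas the other 3 had 0.57, 1.15 and 1.22. PSMF1, the PI31 protein that inhibits the isolated core, had 659 and 692 (0.07), with 0.09 and -0.03 in its other measured probe sets.

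Genes around the proteasome went partly with it. Of 10 proteasome-associated genes without a PSM symbol, 8 had ratios above 0, beside 42.7% of all measured genes, and the median was 0.28. ADRM1 was highest of these, and SEM1 is given above. The deubiquitinase USP14, which edits chains on the cap, went from 3026 to 4334 (0.52), but its probe sets ranged from -0.09 to 0.52. PAAF1, which keeps the cap ATPases from the core, was lowest, from 723 to 544 (-0.41), and its other probe set had -0.42.

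The route that activates NFE2L1 had 6 measured genes with a median of 0.14. Of these, 1 was at least 2-fold higher, beside 1.42% of all measured genes. NFE2L1 itself read 2126 and 2032 (-0.06), with up to 0.18 in its other probe sets. UFD1, a cofactor of the VCP segregase, went from 1063 to 2227, 2.09-fold higher. VCP, which pulls ubiquitylated proteins out of membranes and complexes, had 0.46 and 0.41 in its 2 probe sets, and its cofactor NPLOC4 had 0.29. SEL1L was lowest at -0.24, with up to 1.16 in another probe set. Of the ubiquitin and shuttle factor genes, 6 were measured with a median of 0.04 and 0 past 1.5-fold, from UBQLN4 at -0.29 to UBA1, the ubiquitin-activating enzyme, at 0.34. The ubiquitin gene UBB had 10013 and 10107 (0.01).

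**Figure D4:**
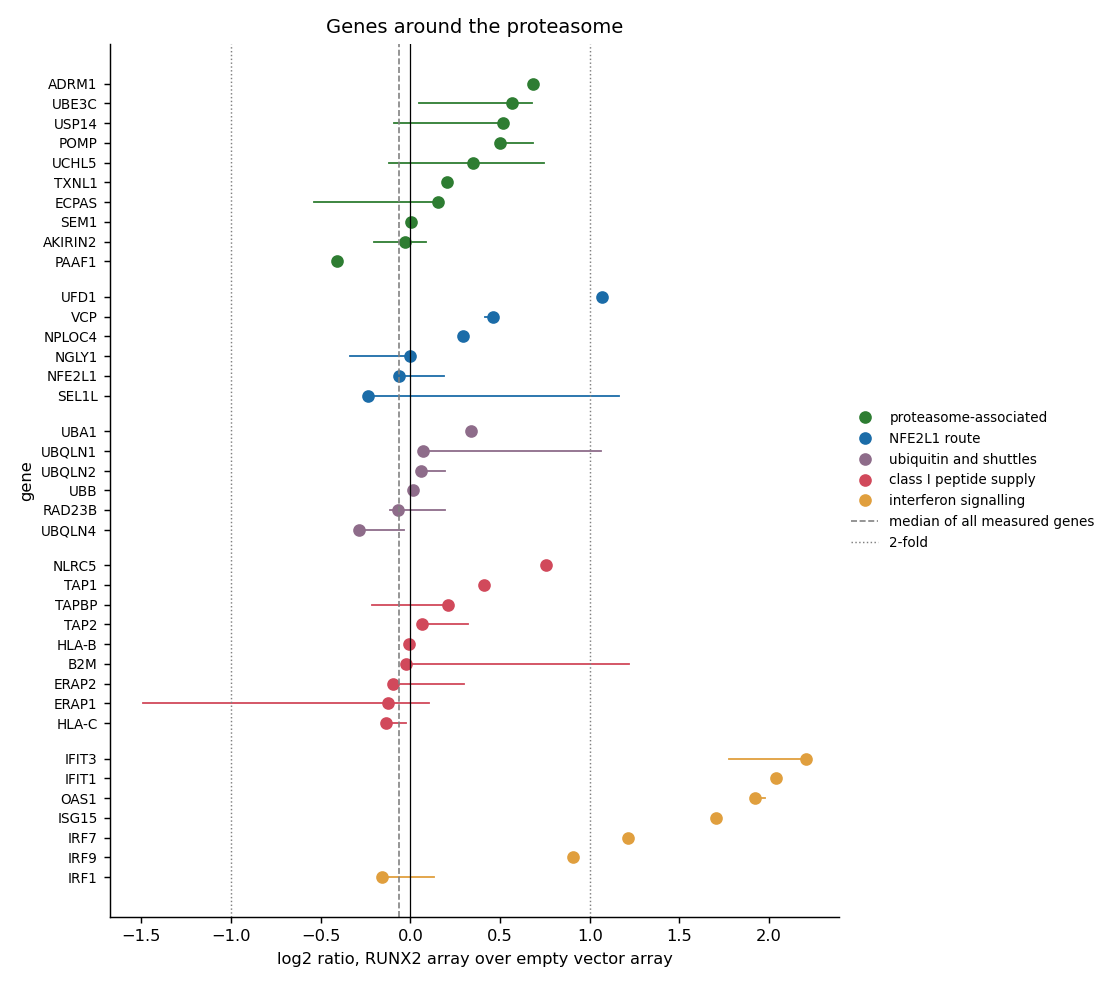
Log2 ratio of genes without a PSM symbol around the proteasome, in 5 lists; points are the brightest probe set, and lines span the lowest to the highest measured probe set of the gene. Interferon signalling genes other than IRF1 lie far to the right, and the brightest probe sets of the ubiquitin and class I genes lie between -0.29 and 0.76, with single probe sets of ERAP1, B2M and UBQLN1 beyond that range.

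Both arrays read as squamous epithelium. KRT5 went from 8842 to 12580 and the epithelial marker SFN from 10612 to 14690. KRT14 went from 586 to 1579, and DSG3, a desmosomal cadherin, from 1919 to 1819. Of 6 fibroblast markers 5 were below the floor on both arrays and COL1A1 read 1937 and 1553, and of 4 endothelial markers 2 were below the floor and PECAM1 went from 69.4 to 55.5 and VWF from 75.02 to 55.2. The RUNX2 probe sets did not go one way: of the 3 above the floor, 2 were 4.17-fold and 3.47-fold higher on the RUNX2 array, and the brightest was 4.03-fold lower. These values leave the labels of the arrays unchecked, and every direction given here depends on the labels.

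**Figure D5:**
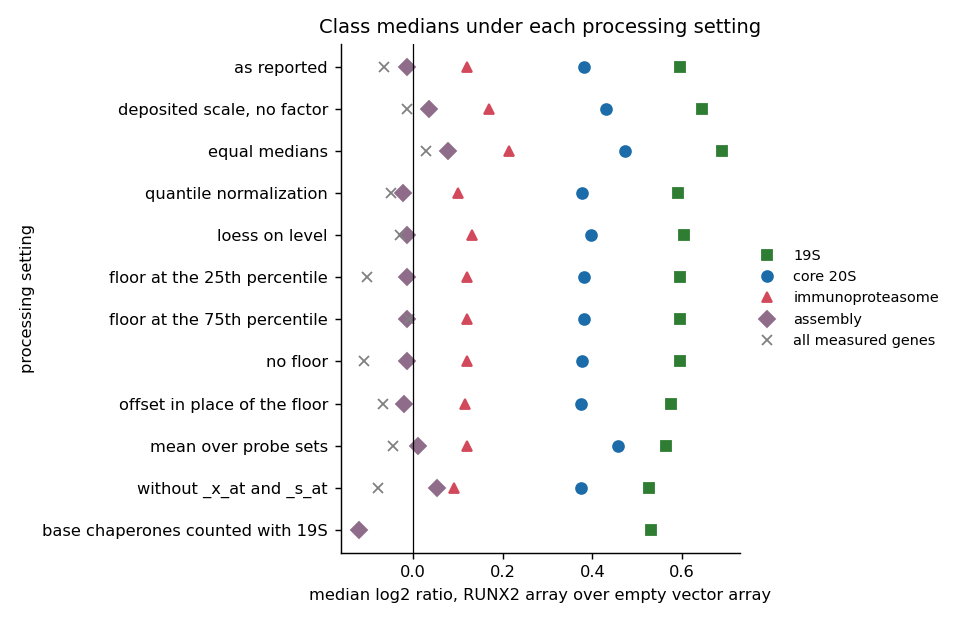
Median log2 ratio of the 4 proteasome classes and of all measured genes under each processing setting, RUNX2 array over empty vector array. The 19S and core 20S medians stay above 0.37 in every setting, and the assembly median lies on both sides of 0.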

How the data were processed

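The values deposited by the authors are linear intensities, 1 for each probe set of each array. MAS5 is the one tool in the submitters' processing notes, with neither version nor target given. How the intensities were scaled and summarised is otherwise not given in the sources used here. Detection calls were not used.

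Of the deposited probe sets, 62 controls were left out, which left 54613. The RUNX2 array was multiplied by 0.966, the ratio of the means after trimming 2% at each end (199 and 206). The floor was each array's median (55.3 with the empty vector, 51.8 with RUNX2 after scaling), values below it were raised to it, and such a ratio is a bound. Genes were named from the platform annotation through Entrez IDs and a RefSeq table of GRCh38.p14. Of the probe sets, 41091 had 1 symbol (41037 matched), 1801 had several and 11721 had none. Several symbols named no gene.

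Samples were grouped by title. The members, the lists, the thresholds of 1.5-fold and 2-fold and the alternatives were chosen with earlier results of these data known. PSMD5, PSMD9 and PSMD10 were counted as assembly factors. Values on both arrays are given for immunoproteasome genes, members at least 1.5-fold either way and the ends of each class, and for other genes where they help. For other lists the highest and lowest ratios and genes past 2-fold are given. The splits into lid and base and the pairs of catalytic subunits were added after seeing the data. Alternatives were other scalings (none, equal medians, quantile, loess with span 0.4), a floor at percentile 25 or 75 or none, an offset added in its place, the mean over probe sets, and leaving out probe sets ending in _x_at or _s_at. Scripts (Python 3.11.15, pandas 2.3.3, statsmodels 0.14.6) were tested on simulated data.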

Additional observations from a re-analysis of the deposited data

How the results depend on the processing

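No paired analysis was possible because each group holds 1 array. The 27 constitutive subunits all lay above 0 under each scaling and floor and with the mean over probe sets, and 19 of 19 did so without probe sets ending in _x_at or _s_at. With no floor PSMA8 entered as a further gene that was not above 0. Those counts and the count of all subunits and regulators above 0 (36, and between 36 and 37 over settings that kept 41 or more genes, with 25 of 30 without _x_at and _s_at probe sets) were chosen for these alternatives after seeing the data. Members at least 1.5-fold higher numbered 9 to 17, the lowest without _x_at and _s_at probe sets, where 34 members were measured. Those at least 1.5-fold lower numbered 0 in every setting tried. Over all measured genes, 3.86% (with the offset) to 8.19% (equal medians) were higher by that measure. The share lower ran from 4.70% (with the offset) to 7.86% (without _x_at and _s_at probe sets). Between 36.5% (no floor) and 53.5% (equal medians) of all measured genes lay above 0. Members at least 2-fold higher numbered 2 or 3, and 1 with the mean over probe sets, where PSME4 no longer passed. The median of the 19S list ran from 0.53 to 0.69, that of the core from 0.37 to 0.47, that of the immunoproteasome genes from 0.09 to 0.21 and that of the assembly factors from -0.12 to 0.08, turning above 0 on the deposited scale, with equal medians, with the mean over probe sets and without _x_at and _s_at probe sets. The 19S median exceeded that of the core, and the core that of the immunoproteasome and assembly lists, in 11 of 11 settings. Of the 41 genes, 5 moved by more than the SD between probe sets under some setting. PSME3 had 0.74 with the floor at percentile 75 and 0.83 and PSMA3 0.48 with the mean over probe sets, and PSMA2 had 0.82, PSMD11 0.33 and PSMG4 0.30 without _x_at and _s_at probe sets. The levels of the 41 genes had a median of 30.3 times the floor and a lowest value of 4.04 times, and with 1 array per group no ratio has a replicate error.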

Other observations

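The 8 genes with such a name that encode no subunit or regulator were mostly antisense or divergent transcripts, and 6 were measured. None passed 1.5-fold. PSMB8-AS1, a non-coding RNA that starts beside PSMB8, went from 423 to 293 (log2 ratio -0.53), with a bound of -0.12 in its other probe set. PSMB8 itself had 0.15. PSMA3-AS1 had 0.01 beside 0.79 for PSMA3, PSMD6-AS2 had -0.08 beside 0.77 for PSMD6, and PSMG3-AS1 had -0.28 beside -0.23 for PSMG3. PSMC3IP, a factor of homologous recombination, had 0.30 with 0.79 in its other probe set, and PSME3IP1, which binds the PSME3 protein, had 0.18. PSMD7-DT and PSMD14-DT were below the floor on both arrays.

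Processed pseudogenes can share probe matches with their parent genes. In the RefSeq table, PSMC1 had 13 pseudogenes, and 16 of the 27 constitutive subunits had at least 1. Those 16 had a median log2 ratio of 0.43 (0.08 to 0.996), and the 11 without a pseudogene had one of 0.55 (0.17 to 0.79). Of the standing probe sets of the 27 subunits, the 3 ending in _x_at, PSMA1, PSMA7 and PSMD4, had a median of 0.25, the 9 ending in _s_at one of 0.59 and the other 15 one of 0.46.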
